A study of Homo sapiens with 6 samples.

Results

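The 10 genes described here, SNHG1, SNHG3, SNHG4, SNHG6, SNHG12, SNHG16, SNHG17, SNHG25, SNHG29 and DANCR, are long non-coding RNA genes that carry small nucleolar RNAs (snoRNAs). They were taken from 3 lists of places where GAPDH, an enzyme of glycolysis that also binds RNA, was crosslinked to RNA in MOLM-13 cells, a human acute myeloid leukaemia line. Every row of the lists that bore 1 of these 10 symbols was kept, of 947 genes with a peak in any list. The cells had been cultured in galactose, in low glucose or in normal glucose, with no other treatment named in the labels, and each condition held 2 samples that the authors had joined into 1 list. Crosslinked RNA had been recovered with an anti-GAPDH antibody and sequenced (CLIP-seq), and the design asks whether the RNA contacts of GAPDH change with the sugar that feeds glycolysis. MOLM-13 is 1 leukaemia line, and the labels give no separate cultures behind the samples. Of 7 myeloid marker genes 1, CEBPA, carried a peak, and none of 6 markers of other cell types did. With a peak on 2.79% of all protein coding genes, these counts do not separate the marker lists, and a peak list gives no expression level. The lists hold positions and gene names only. The depth and the reads behind each peak are therefore unknown, no spread between samples can be given, and each comparison sets lists against each other rather than conditions. Intervals are exact 95% binomial (Clopper-Pearson) intervals and cover counting error over peaks, regions or loci.

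A snoRNA host gene is transcribed and spliced like other genes, but its lasting products are snoRNAs, which are trimmed out of the excised introns. C/D box snoRNAs typically guide the 2'-O-methylation of ribosomal RNA, and H/ACA box snoRNAs typically guide the conversion of uridine to pseudouridine, but not every member of a class is such a guide. The spliced RNA of many such hosts is unstable because nonsense-mediated decay removes it, and several begin with a run of pyrimidines like ribosomal protein genes. For these 10 hosts RefSeq (GRCh38.p14) places 32 snoRNA genes within the GENCODE extents of the hosts, of which 17 are C/D, 13 are H/ACA and 2 have no class in their symbol.

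Of the GAPDH peaks on the 10 hosts, more carried a snoRNA symbol than carried the host symbol without one. The galactose list held 5 peaks in 4 hosts, the low glucose list 8 peaks in 7 hosts and the normal glucose list 11 peaks in 8 hosts. Of these 24 peaks, 16 also carried a snoRNA symbol, namely 3 of the 5 in galactose, 5 of the 8 in low glucose and 8 of the 11 in normal glucose. The snoRNA was H/ACA in 12 of the 16 and C/D in 4. The other 8 peaks carried the host symbol without a snoRNA and are called host-alone peaks. The intervals of the snoRNA share were wide, 14.7 to 94.7% in galactose, 24.5 to 91.5% in low glucose and 39.0 to 94.0% in normal glucose. An equal peak on SNORD22 counts once in each list. With overlapping peaks of the lists merged, 12 regions carried a snoRNA symbol and 8 did not. The hosts were chosen as carriers of snoRNAs with their peaks known, so this majority may follow in part from the choice.

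The windows below are the peaks on which the account turns, read from hg38 on the strand of the host. Bases of the RefSeq snoRNA are in capitals and bases outside it in lower case. The lists do not give the crosslink sites themselves. Every peak was read as its first to last site with 50 nt on either side. This reading is inferred from the widths, since 743 of the 1316 peaks shared the smallest width and none was narrower, and for wider peaks, which the authors made by merging near sites, it is an assumption. A single-site window then holds its site at the middle base, number 51. The first is the window that was the same in all 3 lists, on SNORD22 of SNHG1 (chr11:62852859-62852978, minus strand), in which the inferred sites run from base 51 to base 70.
SNORD22: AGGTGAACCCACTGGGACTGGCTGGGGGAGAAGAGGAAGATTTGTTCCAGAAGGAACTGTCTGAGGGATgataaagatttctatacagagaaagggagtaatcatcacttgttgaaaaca
The next 3 windows are the single-site peaks of SNHG17, each on a different copy of SNORA71 and each from a different list, the galactose list for SNORA71D (chr20:38433850-38433950), the low glucose list for SNORA71C (chr20:38429655-38429755) and the normal glucose list for SNORA71B (chr20:38425183-38425283), all on the minus strand.
SNORA71D: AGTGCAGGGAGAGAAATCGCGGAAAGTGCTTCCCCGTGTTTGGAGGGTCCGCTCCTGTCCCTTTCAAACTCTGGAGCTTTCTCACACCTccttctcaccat
SNORA71C: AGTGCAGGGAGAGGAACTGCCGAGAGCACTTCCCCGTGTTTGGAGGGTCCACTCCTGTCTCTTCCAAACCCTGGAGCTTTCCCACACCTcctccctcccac
SNORA71B: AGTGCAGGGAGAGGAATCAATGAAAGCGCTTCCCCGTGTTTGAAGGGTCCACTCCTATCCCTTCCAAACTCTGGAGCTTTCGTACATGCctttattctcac
The 2 windows of SNHG3 show sites at the 3' ends of its snoRNA pair, SNORA73B in the low glucose list (chr1:28508713-28508813, plus strand) and SNORA73A in the normal glucose list (chr1:28507522-28507622, plus strand). The site is the first base in lower case.
SNORA73B: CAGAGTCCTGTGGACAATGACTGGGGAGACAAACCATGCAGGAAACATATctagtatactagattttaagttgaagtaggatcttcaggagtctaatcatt
SNORA73A: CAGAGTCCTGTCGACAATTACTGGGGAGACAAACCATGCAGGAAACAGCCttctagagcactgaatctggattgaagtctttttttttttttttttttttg
The windows of SNHG25 show its H/ACA snoRNA in the galactose list (chr17:64146368-64146468) and its C/D snoRNA in the normal glucose list (chr17:64146105-64146205), both on the plus strand.
SNORA50C: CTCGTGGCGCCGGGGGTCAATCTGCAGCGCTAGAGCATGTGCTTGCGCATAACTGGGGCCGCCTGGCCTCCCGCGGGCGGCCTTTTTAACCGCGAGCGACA
SNORD104: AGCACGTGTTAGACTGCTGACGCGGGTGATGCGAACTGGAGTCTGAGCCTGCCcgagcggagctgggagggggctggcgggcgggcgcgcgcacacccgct

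Windows of host-alone peaks are shown for SNHG25 in the galactose list (chr17:64145920-64146020) and for DANCR in the normal glucose list (chr4:52712697-52712797). They were picked because the sites fall on the RefSeq start of SNHG25 and on the last base of the MIR4449 hairpin. Both windows are on the plus strand. In the first, capitals mark bases of SNHG25 from its RefSeq start on. In the second, capitals mark bases of the MIR4449 hairpin.
SNHG25: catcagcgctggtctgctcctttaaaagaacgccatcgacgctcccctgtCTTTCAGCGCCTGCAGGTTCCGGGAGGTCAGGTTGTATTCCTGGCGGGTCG
DANCR: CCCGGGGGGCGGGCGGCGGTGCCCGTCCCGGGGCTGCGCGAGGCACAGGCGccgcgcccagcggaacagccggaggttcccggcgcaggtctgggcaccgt
The mature miRNA of that hairpin, hsa-miR-4449 in RefSeq, is given with its seed (bases 2 to 8) in capitals.
hsa-miR-4449: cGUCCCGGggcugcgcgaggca

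The share of each list that lay on the 10 hosts was small. The galactose list had 1.48% of its 337 peaks there (interval 0.483 to 3.43%), the low glucose list 1.65% of 484 (interval 0.716 to 3.23%) and the normal glucose list 2.22% of 495 (interval 1.11 to 3.94%). All 3 intervals overlap. Over the lists, peaks with any snoRNA symbol made up 7.42% of the galactose list, 6.61% of the low glucose list and 7.27% of the normal glucose list. The hosts provided 3 of the 25 such peaks for galactose (12%), 5 of the 32 for low glucose (15.6%) and 8 of the 36 for normal glucose (22.2%).

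**Figure D1:**
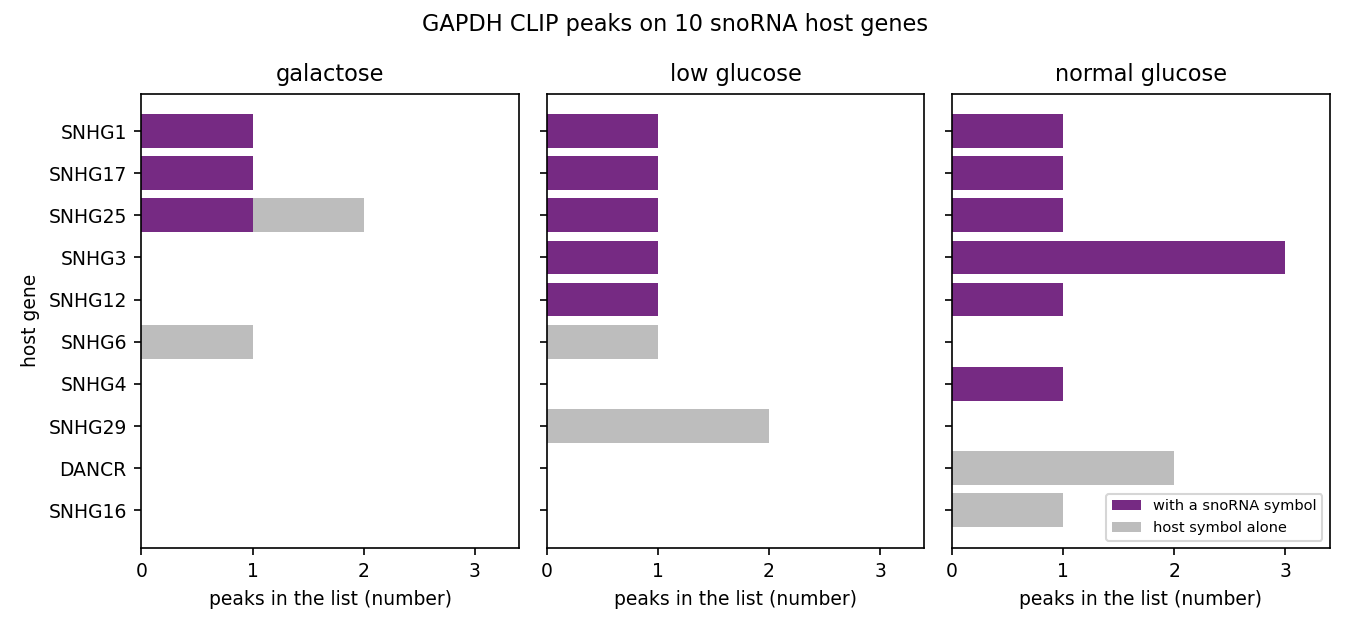
Number of peaks on each of the 10 host genes (rows) in the galactose, low glucose and normal glucose lists (panels). Purple marks peaks that also carry a snoRNA symbol and grey those without one (labelled host symbol alone). The grey DANCR peaks also carried the symbol of LINC01618. SNHG1, SNHG17 and SNHG25 have a peak in each list, and the most peaks in a list are the 3 on SNHG3 in normal glucose.

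Of the 10 hosts, 3 had a peak in every list, 3 in 2 lists and 4 in 1 list. SNHG1 (ENSG00000255717), SNHG17 (ENSG00000196756) and SNHG25 (ENSG00000266402) were in all lists. SNHG3 (ENSG00000242125) and SNHG12 (ENSG00000197989) had peaks in low and normal glucose, and SNHG6 (ENSG00000245910) in galactose and low glucose. SNHG29 (ENSG00000175061) was found in low glucose, and SNHG4 (ENSG00000281398), SNHG16 (ENSG00000163597) and DANCR (ENSG00000226950) in normal glucose. None of the 10 had its peaks in galactose alone, which was the shortest list, with 337 peaks against 484 and 495. The matching shares over all genes with a peak are not given here, so these counts are a description of the 10 hosts.

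Of the 6 hosts found in more than 1 list, 3 were marked at the same place in at least 2 lists (SNHG1, SNHG12 and SNHG25) and the other 3 (SNHG3, SNHG6 and SNHG17) at places that did not overlap. The matching split over all genes found in more than 1 list is not given here. It is therefore a description of these hosts, and the shares over the whole series below are counted by region. Peaks of the 3 lists that overlapped by at least 1 nt were merged, which gave 20 regions on the hosts. Of these, 1 held a peak of each list (5%, interval 0.127 to 24.9%), 2 held peaks of 2 lists and 17 came from 1 list. Of all 951 merged regions of the series, 11% were in all 3 lists and 26.7% in more than 1. On the hosts 15% of the regions were in more than 1 list (interval 3.21 to 37.9%), a range that includes the value over all regions. With peaks within 50 nt joined, 4 of 16 host regions were (25%), beside 28% of all 903 regions, since the peaks at both ends of SNORA73B in SNHG3 then fell together. The 3 shared regions all carried a snoRNA, 3 of 12 regions with a snoRNA symbol against 0 of 8 host-alone regions (Fisher's exact test, two-sided, p = 0.242). This split is already the most uneven in its direction that 3 shared regions of 20 allow, so in this direction the test could not have passed 0.05. Regions of 1 gene share a transcript, so this p-value does not measure the spread between cultures. Of the 50 regions with a snoRNA symbol outside the 10 hosts, 20 were in more than 1 list (40%, interval 26.4 to 54.8%).

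**Figure D2:**
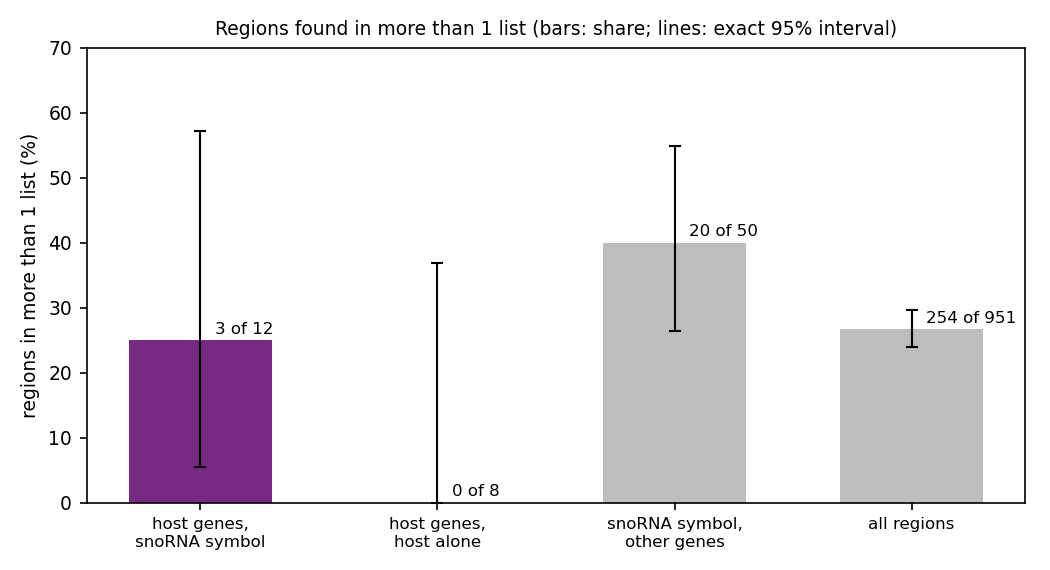
Share of merged regions (%) with a peak in more than 1 list, for regions of the 10 hosts with a snoRNA symbol, their host-alone regions, regions with a snoRNA symbol on other genes, and all regions, with exact 95% intervals as lines. The counts are 3 of 12, 0 of 8, 20 of 50 and 254 of 951, and the intervals of both host gene bars span that of all regions.

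The region present in every list was that of SNORD22, a C/D snoRNA in SNHG1. Its peak had the same start and end in each list and was 120 nt wide. The inferred sites ran from base 108 of SNORD22 to 1 nt past its last base, number 126, that is, over its 3' end. The 7 other C/D snoRNAs of SNHG1, SNORD25 to SNORD31, and an unnamed RefSeq snoRNA gene between them carried no peak in any list. SNORD22 was the longest C/D snoRNA of the 10 hosts, at 126 nt against a median of 74 nt for the 17 C/D loci.

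SNHG17 had 1 peak in each list, and each lay on another copy of SNORA71, an H/ACA snoRNA. The galactose list had SNORA71D, the low glucose list SNORA71C and the normal glucose list SNORA71B. The inferred site was at base 100 of 138 in SNORA71D, base 100 of 138 in SNORA71C and base 98 of 136 in SNORA71B, so that in each it lay 38 nt before the last base. The copies are alike but not identical. At 73 positions of the printed windows the base was the same in all 3, among them the 7 bases before the site, and at 28 it differed. Aligned over their whole length, SNORA71D and SNORA71C were 87% identical, SNORA71D and SNORA71B 87.7%, and SNORA71C and SNORA71B 82.6%. No 30-nt stretch of these windows occurs a further time in the genome. The fourth copy, SNORA71A, lies between SNORA71C and SNORA71B and carried no peak. No read counts are given, so whether the list in which a copy appears reflects a difference in level cannot be told from these data.

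**Figure D3:**
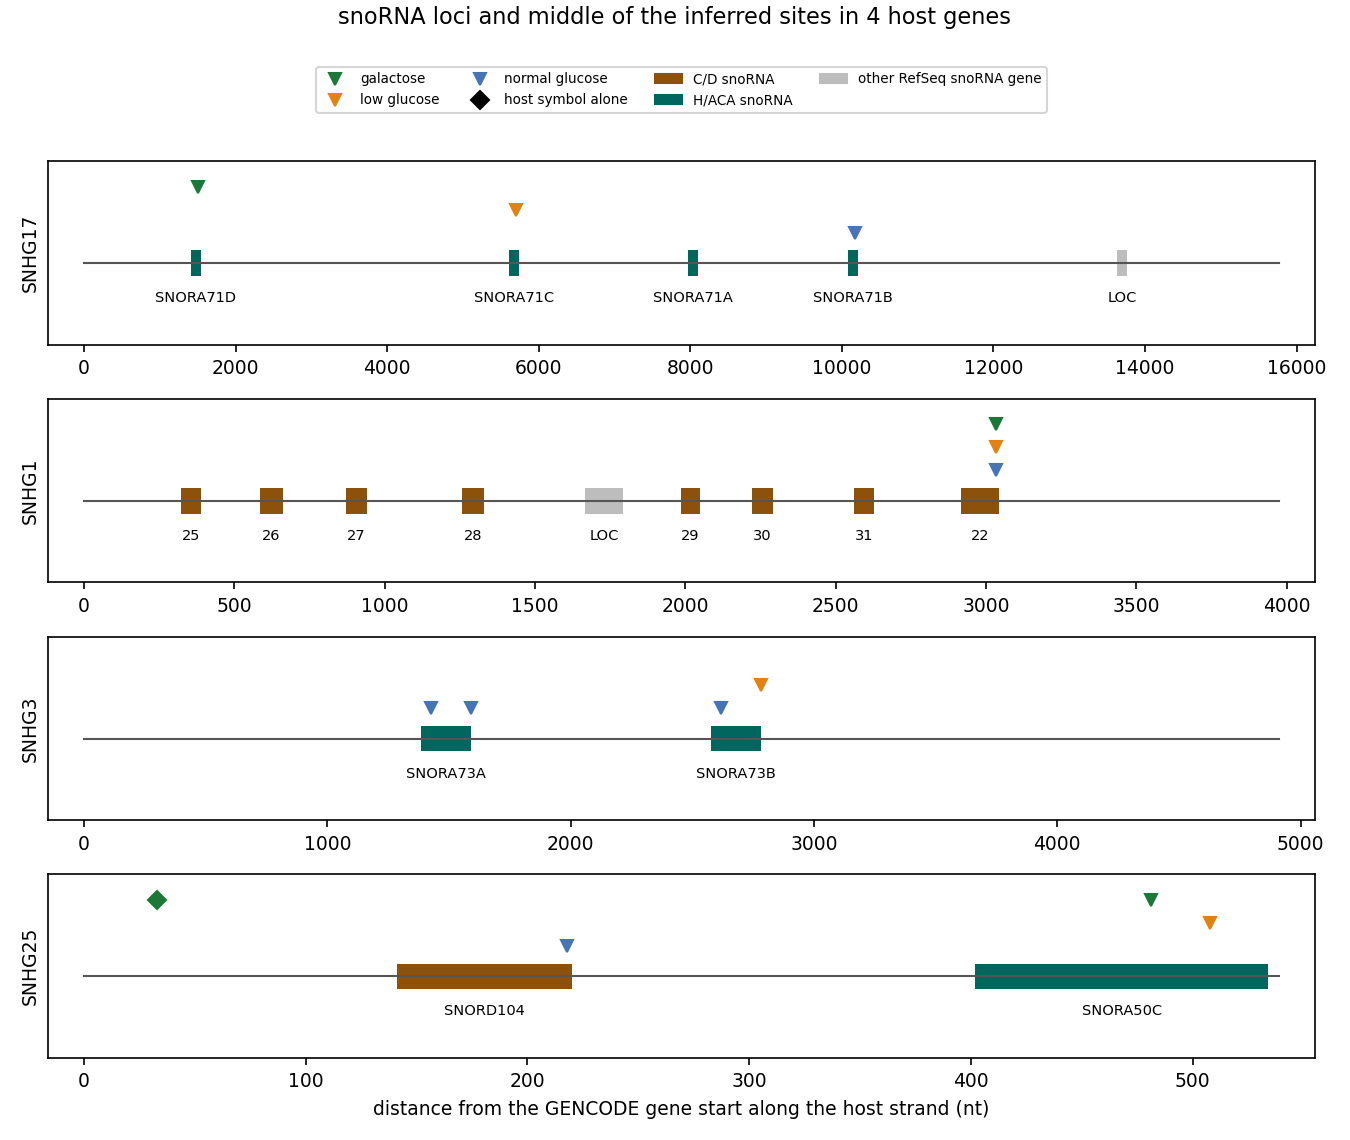
Maps of SNHG17, SNHG1, SNHG3 and SNHG25 drawn along the host strand, with distance from the GENCODE gene start (nt) on the horizontal axis, snoRNA loci as boxes and the middle of the inferred sites as symbols coloured by list (diamond: host symbol alone). In SNHG1, boxes are numbered by their SNORD number. In SNHG17 each list marks another SNORA71 copy, whereas in SNHG1 all 3 lists mark SNORD22.

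SNHG3 and SNHG25 held the most peaks over the lists, 4 each. Those of SNHG3 all lay on its snoRNA pair SNORA73A and SNORA73B (also called U17 or E1), H/ACA snoRNAs that act in the processing of ribosomal RNA rather than as modification guides. The low glucose list had 1 peak and the normal glucose list 3, with none in galactose. In normal glucose, a wide peak lay over the 5' part of each copy. The outermost inferred sites stood 3 nt before the first base and at base 88 of 207 in SNORA73A (peak chr1:28507312-28507502). In SNORA73B they stood 3 nt before the first base and at base 87 of 205 (chr1:28508505-28508694). Where sites lay between these ends is not given. A separate site lay on the first base past the 3' end of SNORA73B in low glucose and of SNORA73A in normal glucose. The low and normal glucose peaks on SNORA73B were 18 nt apart and did not overlap, so they count as separate regions at opposite ends of 1 snoRNA. In the printed 3' windows 45 of the 50 snoRNA bases were the same in both copies, whereas 13 of the 51 bases from the site on were. Under 4% of the 30-nt stretches of each of the 4 peaks occur elsewhere in the genome. These 4 peaks also carried the symbol of RCC1, a chromatin-bound exchange factor whose gene overlaps SNHG3.

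SNHG25 is a short gene of 540 nt, and both of its snoRNAs carried a peak. The H/ACA snoRNA SNORA50C was marked at base 80 of 133 in galactose and from base 80 to 1 nt past the last base in low glucose (chr17:64146368-64146522, 155 nt). Both peaks begin at the same base. The C/D snoRNA SNORD104 was marked in normal glucose alone, at base 78 of 80. Thus each list named SNHG25, but the normal glucose peak did not overlap the others. It lay 162 nt upstream of the SNORA50C peaks and 84 nt downstream of the host-alone peak in galactose.

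SNORA44, 1 of 3 H/ACA snoRNAs of SNHG12, was marked in low glucose from base 11 to base 107 of 132 (chr1:28580356-28580552, 197 nt, the widest peak on the 10 hosts) and in normal glucose at bases 10 and 11 (chr1:28580452-28580553, 102 nt). Its neighbours SNORA61 and SNORA16A and the C/D snoRNA SNORD99 had none. SNORA74D, in SNHG4, was marked in normal glucose from 3 nt before its first base to base 72 of 144 (chr5:139276127-139276301, 175 nt). SNORA74A, the other snoRNA of SNHG4, had no peak. The SNHG4 peak also carried the symbol of SIL1, a co-chaperone gene, and an overlapping gene given without a symbol (ENSG00000280987).

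**Figure D4:**
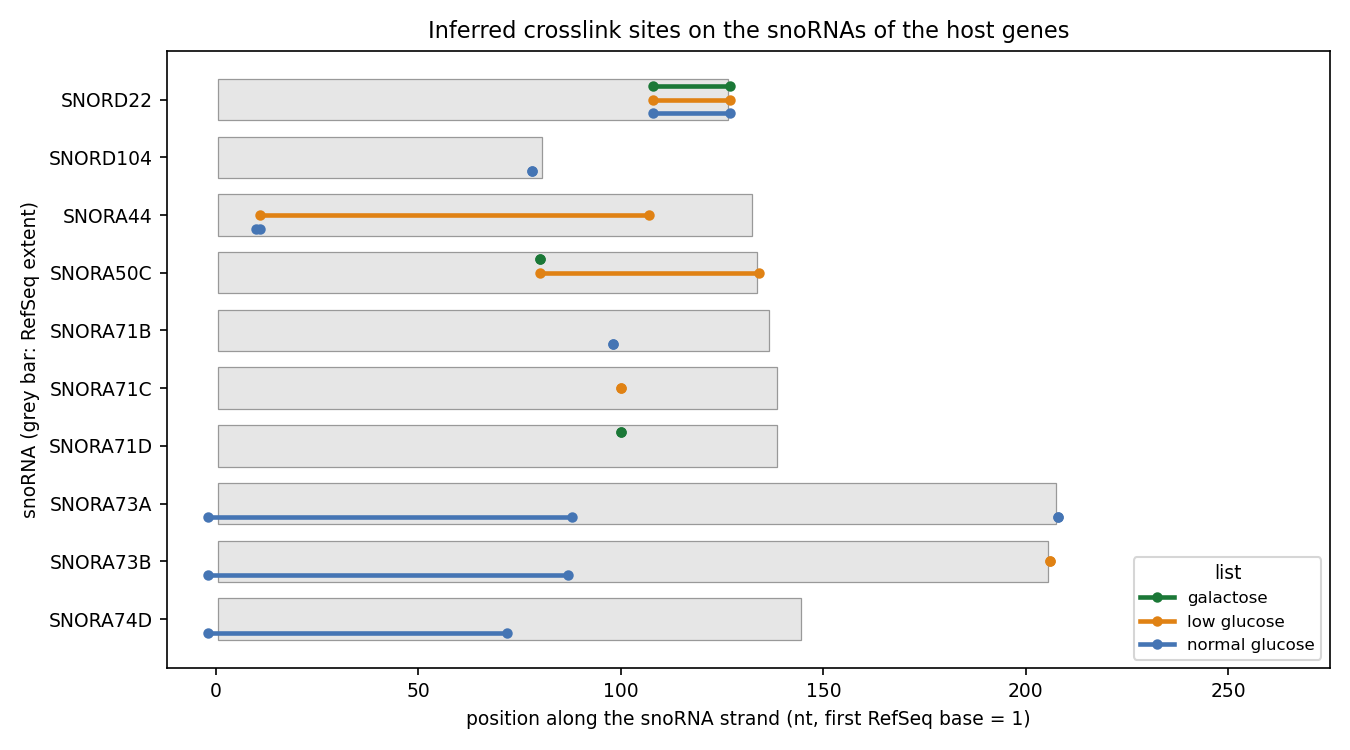
Inferred sites along each snoRNA (nt, first RefSeq base = 1), with the RefSeq extent as a grey bar and sites coloured by list, a line joining the first and last site of a peak. SNORD22 shows the same span in 3 lists, the SNORA71 copies a single site 38 nt before the last base, and SNORA73A, SNORA73B and SNORA74D a span that begins 3 nt before the first base in normal glucose.

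The sites therefore lay inside the snoRNA or within 3 nt of it for all 10 snoRNAs with a peak. Of the 16 peaks with a snoRNA symbol, 10 had their first or last site within 5 nt of an end of the RefSeq snoRNA (62.5%, interval 35.4 to 84.8%), with a median distance of 3 nt. The same held for 50 of the 68 other peaks in the lists that overlapped a RefSeq snoRNA of the same symbol (73.5%, interval 61.4 to 83.5%), with a median of 2 nt. The SNORD22 peak, equal in all 3 lists, counts once per list among the 10. The interval over the 16 peaks therefore treats repeats of 1 position as separate peaks. The 5 nt limit was chosen after the positions were seen. The peaks farther from an end were those on the SNORA71 copies, on SNORA44 and on SNORA50C in galactose.

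The snoRNAs of the hosts that carried a peak were counted by class. A peak was found on 8 of 13 H/ACA loci (61.5%, interval 31.6 to 86.1%) and on 2 of 17 C/D loci (11.8%, interval 1.46 to 36.4%), and on none of the 2 loci without a class. The intervals of both classes overlap narrowly, which does not decide whether the shares differ, and the difference was not tested. Over all other RefSeq loci the values were 12.4% of 169 H/ACA loci and 5.88% of 340 C/D loci. The hosts were chosen with their peaks known, so a higher share than elsewhere follows from the choice and is given as a description. H/ACA loci of the hosts were also longer, with a median of 138 nt against 74 nt for C/D loci, and the part of length in the difference was not tested. H/ACA snoRNAs end in a box of the letters ACA close to the 3' end. With ACA searched on the RNA strand 3 or 4 nt before the last RefSeq base, it was found in 6 of the 8 H/ACA loci with a peak (in all but SNORA44 and SNORA74D), in 5 of the 5 without a peak, and in 86% of 136 other H/ACA loci. The remaining 33 of the 169 had no strand by symbol in GENCODE and were not searched. In the printed windows of the SNORA71 and SNORA73 copies ACA stands 3 nt before the last capital, and the SNORA50C window, which stops short of the end of that snoRNA, ends in it.

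**Figure D5:**
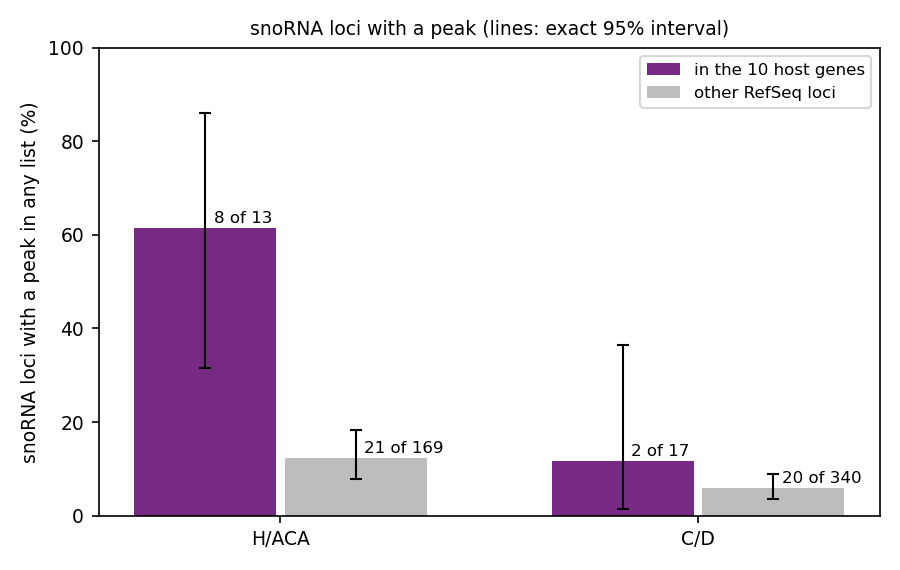
Share of RefSeq snoRNA loci (%) with a peak in any list, by class, for loci in the 10 hosts (purple) and all other loci (grey), with exact 95% intervals as lines. The purple bars stand at 8 of 13 H/ACA loci and 2 of 17 C/D loci, and the grey bars at 21 of 169 and 20 of 340.

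Host-alone peaks, which carried the host symbol and no snoRNA symbol, were found in 5 hosts. There were 2 such peaks in galactose and 3 in either glucose list, each at a place no other list marked. Since the lists give no strand, such a peak need not come from RNA of the host. In SNHG25 the galactose site lay on the first base of the RefSeq transcript. It was inside the first exon of the canonical transcript and in an exon of all 3 annotated transcripts. GENCODE starts the gene farther upstream, and by that annotation the site lay 33 nt after the gene start. The RefSeq start reads as a C followed by pyrimidines, 5 nt in all, as shown above. SNHG4 (13 nt) and SNHG6 (7 nt) had longer runs from a C at their RefSeq start, SNHG1 (3 nt) and SNHG12 (2 nt) shorter ones, and the other 5 hosts began with A or G.

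SNHG6, host of the C/D snoRNA SNORD87, was marked near its RefSeq start in low glucose (chr8:66925416-66925522). The sites lay 69 to 75 nt after that start, in the first exon of the canonical transcript and in an exon of 7 of 8 transcripts in all. From the GENCODE gene start, farther upstream, the first site was 926 nt away. In galactose SNHG6 was marked 3178 nt after the RefSeq start (chr8:66922313-66922413), in an exon of 6 of 8 transcripts and 111 nt from SNORD87. These peaks were 3002 nt apart. SNORD87 itself had none.

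SNHG29, host of SNORD49A, SNORD49B and SNORD65, carried 2 peaks in low glucose and none in the other lists. The first site lay 234 nt after the RefSeq start (chr17:16439171-16439271), in an exon of 10 of 62 transcripts. The second group of sites lay 371 to 395 nt after it (chr17:16439308-16439432), in the second exon of the canonical transcript, 88 nt long, and in 56 of 62 transcripts. DANCR, a non-coding RNA known as a brake on the differentiation of progenitor cells, had 2 sites 129 nt apart in normal glucose, at chr4:52712568-52712668 and in the window printed above. Both lay in the first intron of its canonical transcript and in an exon of 1 of 14 transcripts. Both peaks also carried the symbol of LINC01618, a gene on the same strand. The second site fell on the last base of the 66 nt MIR4449 hairpin. Its peak carried the MIR4449 symbol as well, and the identifier of a gene without a symbol on the opposite strand. SNORA26, the snoRNA of DANCR, was 502 nt away and had no peak.

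SNHG16 was marked once, in normal glucose (chr17:76651801-76651901), 86452 nt past the end of the RefSeq transcript and in an intron of 1 long annotated form. The peak lies in the pseudogene PTMAP13 (76651409 to 76652085). Over its whole length it was 91.1% identical to transcripts of PTMA, which encodes prothymosin alpha, on the strand opposite to SNHG16, and PTMA itself had a peak in galactose and in normal glucose. For this peak 16.7% of the 30-nt stretches recur in the genome, the highest value on the 10 hosts. The lists give no strand, so RNA of SNHG16 and RNA of a copy of PTMA cannot be told apart here. The snoRNAs SNORD1A, SNORD1B and SNORD1C lie near the start of the gene, at least 90145 nt from the site, and had no peak.

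Counted by the middle of the peak, 18 of the 24 peaks lay in an exon of at least 1 annotated host transcript and 6 in an intron, and 5 lay in an exon of the canonical transcript. Of the 8 host-alone peaks, 7 lay in an exon of some transcript and 3 in a canonical exon. Of the 16 with a snoRNA symbol, 11 lay in an exon of some transcript and 2 in a canonical exon. These 2 were on SNORA50C, which GENCODE places in the last exon of SNHG25 and RefSeq past the end of the gene (64146309). In most peaks the inferred sites spanned a short stretch, and the number of sites within a span is not given. From the first to the last site, the median span was 1 nt in the galactose list (1 to 20 nt), 13.5 nt in the low glucose list (1 to 97 nt) and 1 nt in the normal glucose list (1 to 91 nt), beside 1, 2 and 1 nt over all peaks of these lists. Of the 24 peaks, 13 held a single site.

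RNase T1, used to trim the RNA, cuts after G, so a G just before a site was counted for single-site peaks. On the hosts it was found in 0 of the 4 galactose peaks, 1 of the 3 low glucose peaks and 1 of the 6 normal glucose peaks (the first SNHG29 peak and the first DANCR peak), and in none of the 7 with a snoRNA symbol. Over all single-site peaks with a strand the values were 24.3% of the 169 peaks for galactose, 26.1% of the 203 for low glucose and 62.5% of the 267 for normal glucose. The interval for the 6 host peaks of normal glucose, 0.421 to 64.1%, includes the last of these.

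Genes of the same pathway were looked up in fixed lists. Of 24 other snoRNA hosts, most of them non-coding, 4 had a peak, SNHG5 in galactose, TAF1D in galactose and low glucose, SNHG7 in low glucose, on SNORA17A, and ZFAS1 in normal glucose. Over all genes of GENCODE, 2.79% of 20046 protein coding genes and 0.89% of 18866 lncRNA genes had a peak in any list, and the counts of these short lists are read against that. None of the 4 H/ACA core protein genes, of 10 genes for the assembly and export of snoRNA particles, or of 8 genes of nonsense-mediated decay had a peak. Of the 4 C/D core protein genes 1 had, NOP56, in galactose and low glucose, and each of its peaks lay on SNORA51, an H/ACA snoRNA in an intron of NOP56. Of the 93 peaks with a snoRNA symbol, 16 were on the 10 hosts, among them the SNHG3 and SNHG4 peaks that also carried RCC1 or SIL1. Away from the 10 hosts, protein coding genes carried 66, namely 19 for galactose, 24 for low glucose and 23 for normal glucose.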

How the data were processed

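GAPDH CLIP-seq of MOLM-13 cells was deposited as 1 list per condition, into which the authors had joined both samples. The submitters' processing notes name cutadapt, STAR and the build hg38 (GRCh38), without versions. Per the study's methods, sites were called with PureCLIP, near sites were merged and single sites extended. The deposited columns hold positions with gene identifiers and symbols, and no level. Sites were taken to run from 50 nt after the start to 50 nt before the end of a peak. This is inferred from the smallest width and is an assumption for merged peaks, whose flanks are not given in the sources used here. The labels describe an RNA extraction with rRNA removal and no depth is given.

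Rows with equal chromosome, start and end were 1 peak. A snoRNA symbol was one beginning with SNORD, SNORA or SCARNA. Strand, transcripts and canonical forms came from GENCODE release 44, snoRNA ends from RefSeq (GRCh38.p14), and sequence from hg38. Sequence recurrence was counted over 30-mers, with over 50% called recurrent. Python 3.11.15, scipy 1.17.1, Biopython 1.88 and pysam 0.24.0 were used. Interval functions were tested on simulated data, where 200 of 200 regions and 200 of 200 sites were recovered. Every host gene, each of its peaks and each snoRNA symbol on them was named. Of the fixed lists, genes with a peak were named up to 4 examples. The genes and lists were chosen with earlier results of these data known. The only test was Fisher's exact test over regions. Alternatives changed overlap, annotation, the counting of starts and the recurrent sequence.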

Additional observations from a re-analysis of the deposited data

How the results depend on the processing

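No paired analysis was possible because the authors had joined both samples of a condition into 1 list, and for the same reason no sample could be left out. With exons of the canonical transcript alone, 5 in place of 18 peaks had their middle in an exon. With peaks joined within 50 nt, 16 regions were left, 12 in 1 list, 3 in 2 and 1 in all 3. Peak counts per list, the region in all 3 lists, the 16 peaks with a snoRNA (13 with the middle inside it) and peak widths moved by less than 1.5 times under the alternatives run. The Fisher p-value was 0.242 with assignment by position, with an overlap of at least 50% and without recurrent sequence, and 1 for regions in all 3 lists. With GENCODE ends 10 peaks again lay within 5 nt of a snoRNA end, with 12 within 10 nt and 7 within 2 nt (chosen after seeing the data). A G before the site was found in 3 peaks with starts counted from 0, against 2. Without SNHG1 and SNHG17, 55.6% of H/ACA and 11.1% of C/D loci had a peak. Absence from a list cannot be separated from low depth.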
